A study of Drosophila melanogaster with 13 samples.

Results

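The maltase genes Mal-A1 to Mal-A8, Mal-B1 and Mal-B2 were followed in male first instar larvae of Drosophila melanogaster that carried or lacked the long non-coding RNAs roX1 and roX2. These 10 genes were chosen by their symbols, out of 17476 genes with a count, and all 10 passed the filter of 20 counts summed over the libraries that left 13975 genes to test. Polyadenylated RNA from pools of whole larvae was sequenced in 13 libraries of 4 genotypes. There were 3 libraries of wildtype larvae (strain y1 w1118), 4 of the roX1 mutant (y1 w1118 roX1ex6), 3 of the roX2 mutant (y1 cho2 v1 roX2 9-4) and 3 of the roX1 roX2 mutant (y1 w1118 roX1ex6 roX2 9-4, with v1 in the study's methods). In each genotype virgin females were crossed with males that carried the balancer FM7i with an ActGFP transgene, and larvae without GFP were collected. Only the mothers of the roX1 roX2 mutant are described as carrying that balancer too. This difference cannot be told apart from the loss of both roX RNAs. The strains were not isogenic, so the roX alleles and the remaining background, such as cho2 and v1 in the roX2 mutant, cannot be told apart. The comparisons ask what the loss of 1 roX RNA, or of both, did to the RNA of autosomal digestive genes in larvae in which compensation of the X-chromosome was the subject of the study.

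Maltases are alpha-glucosidases that release glucose from maltose and related sugars, the products left when amylase cuts dietary starch. In the fly many are made by the midgut, where they act on food beside trypsins, Jonah proteases and amylases, and sugar in the diet is known to repress Mal-A1 together with the amylases. The roX RNAs belong to the male-specific lethal complex, which raises transcription of the X-chromosome in males. None of the maltase genes lies on the X-chromosome.

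The 8 Mal-A genes form an unbroken cluster on 2R:8449664-8473961 (BDGP6.54, release 6 of the genome), 24298 bp in which no other gene lies wholly inside. Along it Mal-A1, Mal-A3 and Mal-A7 lie on the minus strand and the others on the plus strand. The neighbours are close, with 65 bp between Mal-A5 and Mal-A6, 126 bp between Mal-A2 and Mal-A3, and 290 bp between Mal-A7 and Mal-A8. Mal-B1 (2L:11847226-11849169) and Mal-B2 (2L:11849958-11852881) are a pair 788 bp apart on the plus strand of 2L. Both sit within the span of Pde1c, a phosphodiesterase gene of the opposite strand, with 0 bp of shared exon. The library kit did not mark strand, so reads of unspliced Pde1c RNA could not be told from those of the Mal-B genes. Pde1c was at 15.5 to 38.2 TPM and did not pass the test in any comparison (log2 fold change 0.23, adjusted p = 0.453, edgeR's quasi-likelihood test with Benjamini-Hochberg adjustment, in the roX1 roX2 mutant against wildtype). Mal-A1 shares 82 bp of exon with the antisense Cyp4e1, a cytochrome P450 gene at 1.51 to 5.91 TPM, and Mal-A8 shares 6 bp with the antisense mtt. Most reads without a gene were not unique or ambiguous, as when counting ignores strand. In wildtype replicate 1, 23.8% were without a gene, with 19.6% not unique and 2.91% ambiguous. Reads in a shared stretch would then be left out as ambiguous and not counted for either gene. Cyp4e1 rose by 1.59 on the log2 scale in the roX1 mutant against wildtype (adjusted p = 0.0372) and fell by 1.40 in the roX1 roX2 mutant against the roX1 mutant (adjusted p = 0.0129).

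The libraries held 45620194 to 83954893 counts on genes. The labels were checked against the targeted genes, and roX1 had at most 398 counts in the libraries labelled without it and at least 58654 in the others, while roX2 had at most 3 and at least 1400 counts. Along the largest principal component of 7052 autosomal genes, which held 67.6% of the variance and was computed without the maltases, 4 libraries stood apart from the other 9. They were replicates 1 and 2 of the roX1 mutant, replicate 4 of the roX2 mutant and replicate 1 of wildtype. Their scores were 37.7 to 95.6 against -36.6 to -19.4, and no library of the roX1 roX2 mutant was among them. The midgut list of 33 genes, with 32 detected in every library and Peritrophin-15b under 20 counts, summed to 17296 CPM, the count of a gene scaled to a common library size, in wildtype replicate 1. It summed to 3434 and 3804 CPM in the other wildtype libraries, to 3231 to 6318 in the roX1 mutant, 4069 to 4844 in the roX2 mutant and 4568 to 11338 in the roX1 roX2 mutant. The Osiris and Tweedle list of 48 cuticle genes, with 32 detected in every library and Osi1 and Osi11 under 20 counts, was high in the 4 libraries that stood apart. It summed to 21161 and 16028 CPM in roX1 mutant replicates 1 and 2, to 5025 CPM in roX2 mutant replicate 4 and to 4171 CPM in wildtype replicate 1, against 1097 to 2882 CPM in the other 9 libraries. RNA of whole larvae was measured, so fewer gut cells and less maltase RNA per cell cannot be told apart, and nothing in these libraries places a transcript in the gut.

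Maltase RNA was made up mostly of 3 transcripts. Levels are given as TPM, in which counts are divided by exon length and scaled to the same total in each library, so that genes can be compared with each other. Over the 13 libraries Mal-A3 averaged 31.9 ± 26.2 TPM, Mal-A5 25.5 ± 8.87 and Mal-B2 16.3 ± 4.39 (SD, n = 13), and together they held 64.9 to 86.8% of all maltase TPM in a library. Mal-B1 at 5.59 ± 1.93, Mal-A1 at 5.47 ± 4.67, Mal-A2 at 4.02 ± 3.11 and Mal-A4 at 3.97 ± 2.41 TPM followed. Mal-A8 at 2.72 ± 2.37 and Mal-A6 at 2.24 ± 2.18 TPM were lower, and Mal-A7 was barely detected at 0.0935 ± 0.0891 TPM.

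The order of neighbours in that ranking was firm in some places and not in others. Mal-A5 was above Mal-B2 in 12 of 13 libraries, Mal-B2 above Mal-B1 in all 13, Mal-A8 above Mal-A6 in 12 and Mal-A6 above Mal-A7 in all 13. Mal-A3 was above Mal-A5 in only 5 libraries, 3 of them the roX1 roX2 mutant libraries, with 1 of 3 wildtype, 0 of 4 roX1 mutant and 1 of 3 roX2 mutant libraries. Mal-B1 against Mal-A1 (7 of 13), Mal-A1 against Mal-A2 (8 of 13) and Mal-A2 against Mal-A4 (7 of 13) had no steady order. The share of maltase TPM held by Mal-A5 was 16.2 to 24.8% in the roX1 roX2 mutant and 31.8 to 38.0% in the roX1 mutant. In wildtype it ran from 9.97% in replicate 1 to 38.6% in replicate 3. The sum of all 10 genes was 123 ± 70.5 TPM in wildtype (SD, n = 3), 89.2 ± 8.24 in the roX1 mutant (n = 4), 95.8 ± 35.9 in the roX2 mutant (n = 3) and 86.0 ± 13.3 in the roX1 roX2 mutant (n = 3), so that the genotypes overlapped.

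**Figure D1:**
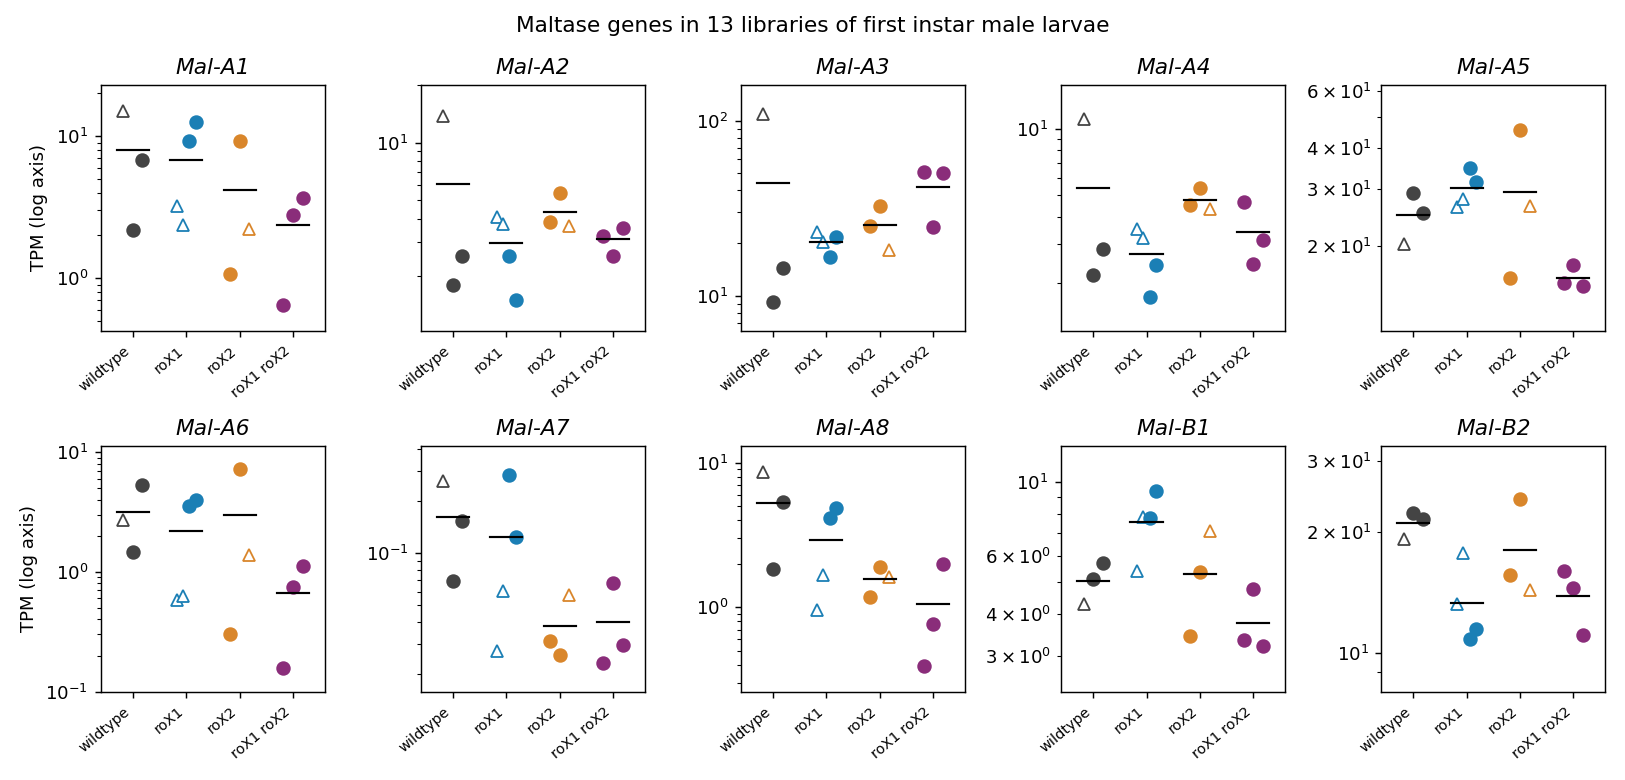
TPM of each maltase gene (log axis) in the 13 libraries by genotype, with horizontal lines at the means and open triangles for the 4 libraries that stood apart on the principal component. Mal-A5 in the 3 roX1 roX2 mutant libraries sits between 15.1 and 17.5 TPM, while Mal-A3 spans 9.24 to 109 TPM within wildtype alone.

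Mal-A5 was the maltase gene with the clearest difference between genotypes: it was lower in the roX1 roX2 mutant than in wildtype and in each single mutant. It was at 20.4, 29.1 and 25.2 TPM in wildtype replicates 1, 3 and 4, and at 26.3, 28.0, 34.8 and 31.6 TPM in roX1 mutant replicates 1 to 4. It was at 15.9, 45.7 and 26.7 TPM in roX2 mutant replicates 2, 3 and 4, and at 15.4, 17.5 and 15.1 TPM in the same replicates of the roX1 roX2 mutant. Every roX1 roX2 mutant library was below every wildtype and every roX1 mutant library, but roX2 mutant replicate 2 lay among them.

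Against wildtype, Mal-A5 fell by 0.84 on the log2 scale in the roX1 roX2 mutant (SE 0.21, adjusted p = 0.0293, edgeR's quasi-likelihood test with Benjamini-Hochberg adjustment over all genes, as throughout). Against the roX1 mutant it fell by 1.23 (SE 0.20, adjusted p = 0.00320), and against the roX2 mutant by 1.15 (SE 0.21, adjusted p = 0.0102). The call against the roX1 mutant held in all 13 fits that left out 1 library, with adjusted p of 0.0293 at most. The call against wildtype held in 8 of 13, with log2 values of -0.94 to -0.76 over these fits. It was lost without wildtype replicate 3 (adjusted p = 0.0948) or 4 (0.0891), and without roX1 roX2 mutant replicate 2 (0.136), 3 (0.105) or 4 (0.0689). The call against the roX2 mutant was lost without roX1 roX2 mutant replicate 2 (log2 value -1.08, adjusted p = 0.0620) or 3 (-1.17, 0.0645), and with only these genotypes in the fit (-1.14, 0.0697). Without the 4 libraries that stood apart, all of these calls on Mal-A5 held, with log2 fold changes of -0.94, -1.34 and -1.15.

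Mal-A5 did not pass the test in either single mutant. Its log2 fold change against wildtype was 0.39 in the roX1 mutant (95% interval 0.01 to 0.77, adjusted p = 0.338) and 0.32 in the roX2 mutant (-0.08 to 0.72, adjusted p = 0.635). The interval for the roX1 mutant left out 0, although the unadjusted p of edgeR's test was not under 0.05. The effect of deleting roX2 thus differed with and without roX1, by -1.55 on the log2 scale (SE 0.28, adjusted p = 0.0202 for the interaction of the deletions). That call was lost without wildtype replicate 3 (0.0631) or 4 (0.0528), and without roX1 roX2 mutant replicate 2 (0.0770) or 3 (0.0732).

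Mal-A6, whose start lies 65 bp beyond the end of Mal-A5 on the same strand, did not pass the test in any comparison. It was at 2.72, 1.47 and 5.30 TPM in wildtype, and at 0.579, 0.631, 3.53 and 4.02 TPM in the roX1 mutant. It was at 0.305, 7.20 and 1.39 TPM in the roX2 mutant and at 0.157, 0.748 and 1.11 TPM in the roX1 roX2 mutant. All 3 roX1 roX2 mutant libraries were below the 3 wildtype libraries, yet the libraries of each single mutant reached from 0.631 TPM or less to 4.02 TPM or more. Its log2 fold change in the roX1 roX2 mutant against wildtype was -2.42 (95% interval -4.58 to -0.25, adjusted p = 0.202). It was -1.96 against the roX1 mutant (adjusted p = 0.211) and -2.23 against the roX2 mutant (adjusted p = 0.242), in the same direction as Mal-A5, and the difference between the genes was not tested.

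Mal-B2, the more abundant of the Mal-B pair, was lower in the roX1 roX2 mutant than in wildtype and in the roX2 mutant, but not against the roX1 mutant. It was at 19.2, 22.3 and 21.6 TPM in wildtype, at 13.2, 17.7, 10.9 and 11.5 TPM in the roX1 mutant, and at 15.6, 24.1 and 14.3 TPM in the roX2 mutant. In the roX1 roX2 mutant it was at 16.0, 14.5 and 11.1 TPM. The wildtype libraries lay above all roX1 mutant and all roX1 roX2 mutant libraries, and these mutants overlapped with each other and with the roX2 mutant.

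Mal-B2 fell by 0.81 on the log2 scale in the roX1 roX2 mutant against wildtype (SE 0.18, adjusted p = 0.0192) and by 0.72 against the roX2 mutant (SE 0.18, adjusted p = 0.0340). Against the roX1 mutant the difference was -0.26 (95% interval -0.59 to 0.07, adjusted p = 0.301). The call against wildtype was lost without wildtype replicate 4 (0.0667) and without roX1 roX2 mutant replicate 3 (0.0744) or 4 (0.0692). The call against the roX2 mutant passed in only 5 of 13 fits that left out 1 library. It was lost without wildtype replicate 3 (0.0538) or 4 (0.0513), roX1 mutant replicate 1 (0.0512), roX2 mutant replicate 2 (0.0726) or 3 (0.0549), and roX1 roX2 mutant replicate 2 (0.0813), 3 (0.127) or 4 (0.115). It was also lost with only these genotypes in the fit (0.0767).

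In the roX1 mutant against wildtype, Mal-B2 had a log2 fold change of -0.55 (SE 0.17, adjusted p = 0.130) and did not pass the test. DESeq2 gave an adjusted p of 0.0460 for it. Without the 4 libraries that stood apart the change was -0.87 (adjusted p = 0.0136). In the roX2 mutant against wildtype it was -0.09 (95% interval -0.45 to 0.26, adjusted p = 0.917).

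Mal-B1, its neighbour, was lower in the roX1 roX2 mutant than in the roX1 mutant. It was at 4.29, 5.11 and 5.70 TPM in wildtype, at 5.39, 7.82, 7.79 and 9.37 TPM in the roX1 mutant, and at 3.43, 5.35 and 7.11 TPM in the roX2 mutant. In the roX1 roX2 mutant it was at 3.34, 4.76 and 3.20 TPM. The roX1 mutant libraries were all above the roX1 roX2 mutant libraries, and 3 of the 4 were above every wildtype library.

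Mal-B1 fell by 1.32 on the log2 scale in the roX1 roX2 mutant against the roX1 mutant (SE 0.24, adjusted p = 0.00545), and passed in all 13 fits that left out 1 library. Its differences against the roX2 mutant (-0.84, SE 0.25, adjusted p = 0.0667) and against wildtype (-0.63, SE 0.25, adjusted p = 0.148) did not pass. The former passed with DESeq2 (0.0203), with scaling factors taken from autosomal genes (0.0468) and without roX2 mutant replicate 3 (0.0409). The roX1 mutant had a log2 fold change of 0.69 against wildtype (SE 0.24, adjusted p = 0.175), and the interaction of the deletions was -1.54 (SE 0.35, adjusted p = 0.0403). The interaction was lost without any of 10 libraries, all but roX1 mutant replicate 1 and roX2 mutant replicates 2 and 3, with log2 values of -1.68 to -1.22 over the 13 fits and adjusted p up to 0.129.

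The sum of the fat body list of 7 genes (3 detected in every library, Lsp2 under 20 counts) moved with the level of Mal-B1. It was 1521 to 1825 CPM in wildtype, 2122 to 3753 in the roX1 mutant, 808 to 2068 in the roX2 mutant and 685 to 1193 in the roX1 roX2 mutant. Of its 6 tested genes, 1 passed in the roX1 roX2 mutant against the roX1 mutant, apolpp, which encodes the apolipophorin of the blood and fell by 1.81 (SE 0.36, adjusted p = 0.00732). The median log2 fold change of the tested genes was 0.53 in that comparison, opposite in direction to apolpp and Mal-B1. It was 0.23 against the roX2 mutant and -0.77 against wildtype, so the sum does not stand for the list as a whole. The part of the fat body in the difference of Mal-B1 was not tested. Body wall muscle genes also moved: their sum was 17292 to 22294 CPM in the roX1 roX2 mutant and 29920 to 35649 CPM in wildtype, and 5 of 6 passed as lower in that comparison, as did 5 of 6 against the roX1 mutant and 4 of 6 against the roX2 mutant. Over all genes 5.67%, 11.6% and 5.44% were lower in these comparisons, and 3.41%, 6.45% and 2.23% were higher. The part of muscle in the falls of Mal-A5 and Mal-B2 was not tested. The lists were not split by chromosome, and the part of lost compensation of X-linked genes in the falls of listed genes was not tested. Of 46 tested Osiris and Tweedle genes 2, 11 and 2 were lower in the roX1 roX2 mutant against wildtype, the roX1 mutant and the roX2 mutant, and 0 were higher. TwdlX (-1.57, -2.13 and -1.65) and Twdlalpha (-1.64, -1.72 and -1.33) were among them in each, and the part of these cuticle genes in the falls of the maltases was not tested. Without the 4 libraries that stood apart 3, 4 and 3 of 36 tested were lower, beside 7.5%, 13.7% and 4.68% of all genes, and 0, 1 and 1 were higher. Of 5 nervous system genes 0, 1 and 2 were higher in the same comparisons. Of 32 tested midgut genes, 1 was called in any comparison of genotypes with all libraries, Peritrophin-A, a protein of the gut lining. It was lower in the roX1 roX2 mutant than in the roX1 mutant (-1.79), opposite in direction to the list median of 0.53. The list median was 0.32 against the roX2 mutant and -0.50 against wildtype. Without the 4 libraries that stood apart, the roX1 roX2 mutant had 4 midgut genes higher and 1 lower against wildtype (median 0.62). It had 9 higher and 2 lower against the roX1 mutant, where 20.8% of all genes were called. Against the roX2 mutant it had 0 called, beside 5.9% of all genes.

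**Figure D2:**
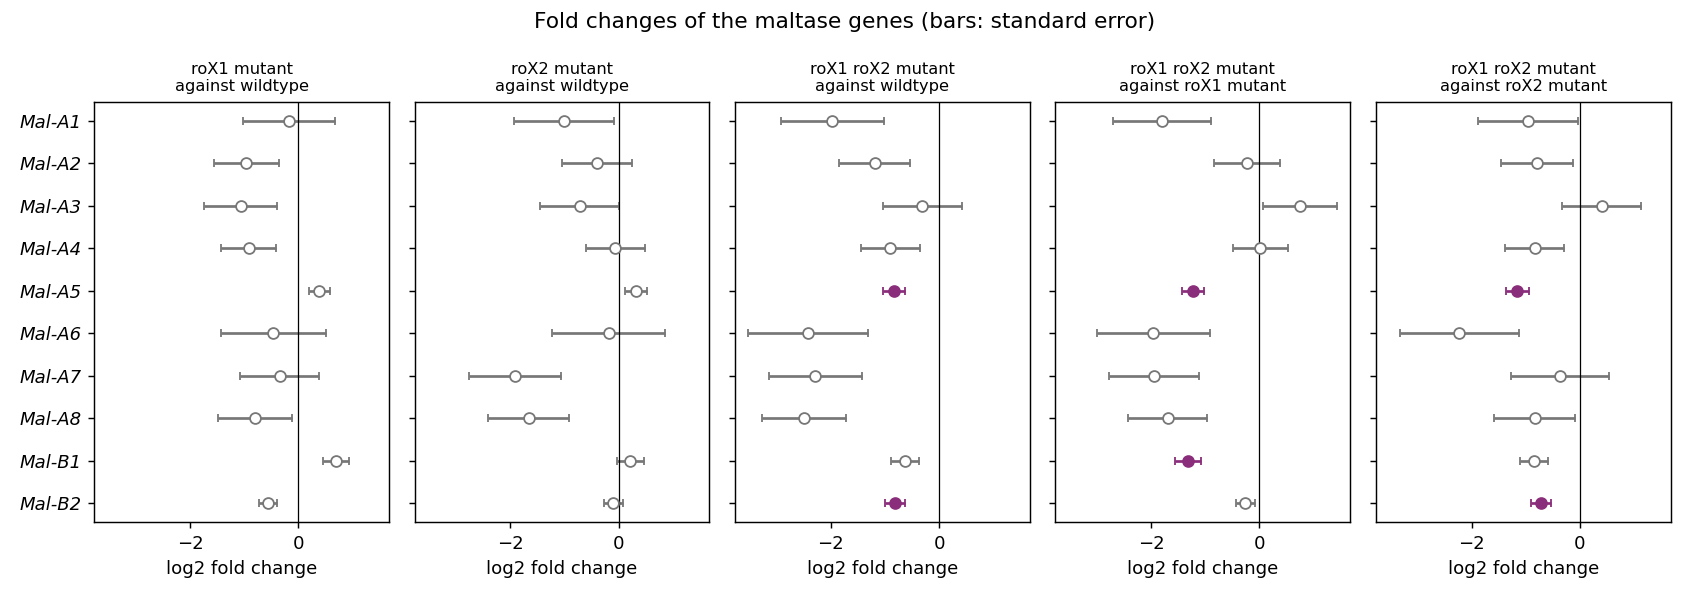
Log2 fold changes of the 10 maltase genes in the 5 comparisons of genotypes, with bars of 1 standard error and filled points for genes past an adjusted p of 0.05. Filled points are Mal-A5 in each comparison with the roX1 roX2 mutant, Mal-B2 against wildtype and the roX2 mutant, and Mal-B1 against the roX1 mutant.

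Mal-A3 was the most abundant maltase on average and also the one that rested most on a single library. It was at 109, 9.24 and 14.4 TPM in wildtype replicates 1, 3 and 4, and at 23.0, 20.3, 16.6 and 21.5 TPM in the roX1 mutant. It was at 25.0, 32.6 and 18.1 TPM in the roX2 mutant and at 50.6, 24.5 and 50.0 TPM in the roX1 roX2 mutant. Wildtype replicate 1 was above all other libraries and the remaining wildtype libraries were below all of them, while the roX1 roX2 mutant libraries were above all of the roX1 mutant.

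With all libraries the log2 fold change of Mal-A3 in the roX1 roX2 mutant against wildtype was -0.31 (SE 0.73, adjusted p = 0.830). Without wildtype replicate 1 the difference changed its direction to 1.64 (SE 0.37, adjusted p = 0.0299), which passed the test as higher. Without the 4 libraries that stood apart it was also 1.64 (adjusted p = 0.0248). Against the roX1 mutant, where wildtype replicate 1 does not enter the contrast, it was 0.75 (SE 0.68, adjusted p = 0.469) with groups that did not overlap, and against the roX2 mutant 0.41 (SE 0.73, adjusted p = 0.783). Wildtype replicate 1 was also the library with the highest midgut sum, given above, at 17296 CPM against 3434 and 3804 CPM in the other wildtype libraries. Among the roX1 roX2 mutant libraries the midgut sum was 5931 and 4568 CPM in replicates 2 and 3 and 11338 CPM in replicate 4. The part of gut content in the level of Mal-A3 was not tested.

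Mal-A2 and Mal-A4, the genes on either side of Mal-A3, were likewise highest in wildtype replicate 1. Mal-A2 was at 13.8, 1.81 and 2.53 TPM in wildtype and at 1.50 to 5.44 TPM in the 10 mutant libraries. Mal-A4 was at 11.1, 2.18 and 2.86 TPM in wildtype and at 1.73 to 5.42 TPM in the mutants. For both genes all mutant libraries were below wildtype replicate 1, and the remaining wildtype libraries lay within the range of the mutants.

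Neither gene passed the test in any comparison. In the roX1 roX2 mutant against wildtype the log2 fold change was -1.19 for Mal-A2 (SE 0.66, adjusted p = 0.294) and -0.90 for Mal-A4 (SE 0.55, adjusted p = 0.340). Without wildtype replicate 1 they were 0.34 and 0.25. Mal-A2, Mal-A3 and Mal-A4 changed direction in all 3 comparisons with wildtype once that library was left out, with values of 0.55, 0.87 and 0.21 in the roX1 mutant and 1.11, 1.22 and 1.06 in the roX2 mutant, none past the test.

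Mal-A1, the maltase known for its repression by dietary sugar, ranged from 0.648 to 15.1 TPM. It was at 15.1, 2.18 and 6.81 TPM in wildtype, at 3.20, 2.39, 9.22 and 12.6 TPM in the roX1 mutant, at 1.08, 9.29 and 2.21 TPM in the roX2 mutant and at 0.648, 2.77 and 3.67 TPM in the roX1 roX2 mutant. The genotypes overlapped throughout. The log2 fold change in the roX1 roX2 mutant was -1.97 against wildtype (SE 0.94, adjusted p = 0.223) and -1.79 against the roX1 mutant (SE 0.90, adjusted p = 0.183). A fall of that size was within the spread of the libraries.

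Mal-A8, at the far end of the cluster, came closer to the threshold. It was at 8.63, 1.85 and 5.37 TPM in wildtype, at 0.961, 1.67, 4.12 and 4.89 TPM in the roX1 mutant, at 1.18, 1.89 and 1.62 TPM in the roX2 mutant and at 0.396, 0.764 and 1.99 TPM in the roX1 roX2 mutant. Only roX1 roX2 mutant replicate 4 overlapped with the lowest wildtype library. The log2 fold change in the roX1 roX2 mutant against wildtype was -2.50 (SE 0.78, adjusted p = 0.0681). DESeq2 gave -2.51 with an adjusted p of 0.00350, and the test was also passed without wildtype replicate 3 (0.0461) or roX1 roX2 mutant replicate 4 (0.0402). Against the roX1 mutant it was -1.70 (SE 0.73, adjusted p = 0.122), with 0.0338 by DESeq2 and 0.0366 without the 4 libraries that stood apart.

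Mal-A7 had only 2 to 35 counts per library. It had 7 to 35 counts in wildtype, 3 to 23 in the roX1 mutant, 2 to 5 in the roX2 mutant and 3 to 5 in the roX1 roX2 mutant. Its level was below that of wildtype in every roX2 mutant and roX1 roX2 mutant library, but at this depth the log2 fold changes of -1.92 (SE 0.85, adjusted p = 0.447) and -2.28 (SE 0.85, adjusted p = 0.121) did not pass the test.

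Counted over the family, 2 of the 10 genes were called lower in the roX1 roX2 mutant against wildtype, Mal-A5 and Mal-B2, and 0 higher. Over all tested genes 5.67% were called lower and 3.41% higher in that comparison. The median log2 fold change was -1.04 over the maltases and -0.02 over all genes, and all 10 maltases were below 0, a direction that Mal-A2, Mal-A3 and Mal-A4 owed to wildtype replicate 1. The wildtype and roX1 roX2 mutant libraries did not overlap in TPM for 4 genes, all lower in the mutant (Mal-A5, Mal-A6, Mal-A7 and Mal-B2), where 11.5% of all genes were wholly lower and 26% wholly higher.

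Against the roX1 mutant, 2 of 10 were called lower in the roX1 roX2 mutant (Mal-A5 and Mal-B1), beside 11.6% of all genes, and 0 higher, beside 6.45%. The median log2 fold change was -1.27 over the maltases and -0.01 over all genes. Libraries did not overlap for Mal-A5 and Mal-B1, both lower (9.78% of all genes), and for Mal-A3, which was higher (32.3%). Without the 4 libraries that stood apart 4 genes were called, since Mal-A7 at -2.67 (adjusted p = 0.0423) and Mal-A8 at -2.33 (adjusted p = 0.0366) joined them. In that setting 20.8% of all genes were called, and 13.7% were called lower. Mal-A7 had few counts, as given above. Against the roX2 mutant, 2 of 10 were called lower (Mal-A5 and Mal-B2), beside 5.44% of all genes, and 0 higher, beside 2.23%, with medians of -0.84 and -0.05. Only Mal-A2 did not overlap between these genotypes, lower in the roX1 roX2 mutant, as in 5.66% of all genes.

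In the single mutants against wildtype no maltase gene was called by edgeR, beside 1.32% of all genes in the roX1 mutant and 0.351% in the roX2 mutant. At an unadjusted p under 0.05 there were 2 genes in the roX1 mutant, Mal-B1 and Mal-B2, and 2 in the roX2 mutant, Mal-A7 and Mal-A8. The share of all genes under that rule is not given here, so these counts are not a result about the maltases. DESeq2 called 1 maltase gene in the roX1 mutant, Mal-B2, where it called 979 genes in all. It called 0 maltase genes in the roX2 mutant, where it called 245 genes in all. The libraries did not overlap with wildtype for Mal-B2 in the roX1 mutant (11.6% of all genes wholly lower) and for Mal-A7 in the roX2 mutant (9.51%). The interaction of the deletions was called for 2 of 10 genes, Mal-A5 and Mal-B1, both below 0, as for 2.35% of all genes. All these comparisons share libraries, so their counts are not independent of each other.

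Every call on a maltase gene also passed when scaling factors were taken from autosomal genes. The mean log2 fold change of genes on the major autosome arms was -0.03, -0.15 and -0.17 in the roX1 roX2 mutant against wildtype, the roX1 mutant and the roX2 mutant. Relative to that mean, as the study's methods express changes, Mal-A5 was at -0.80, -1.08 and -0.98, Mal-B2 at -0.78 against wildtype and -0.54 against the roX2 mutant, and Mal-B1 at -1.18 against the roX1 mutant. These are shifted fold changes that were not tested again, so they cannot show whether a call would hold. Mal-B2 against the roX2 mutant was at -0.72 before the shift.

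**Figure D3:**
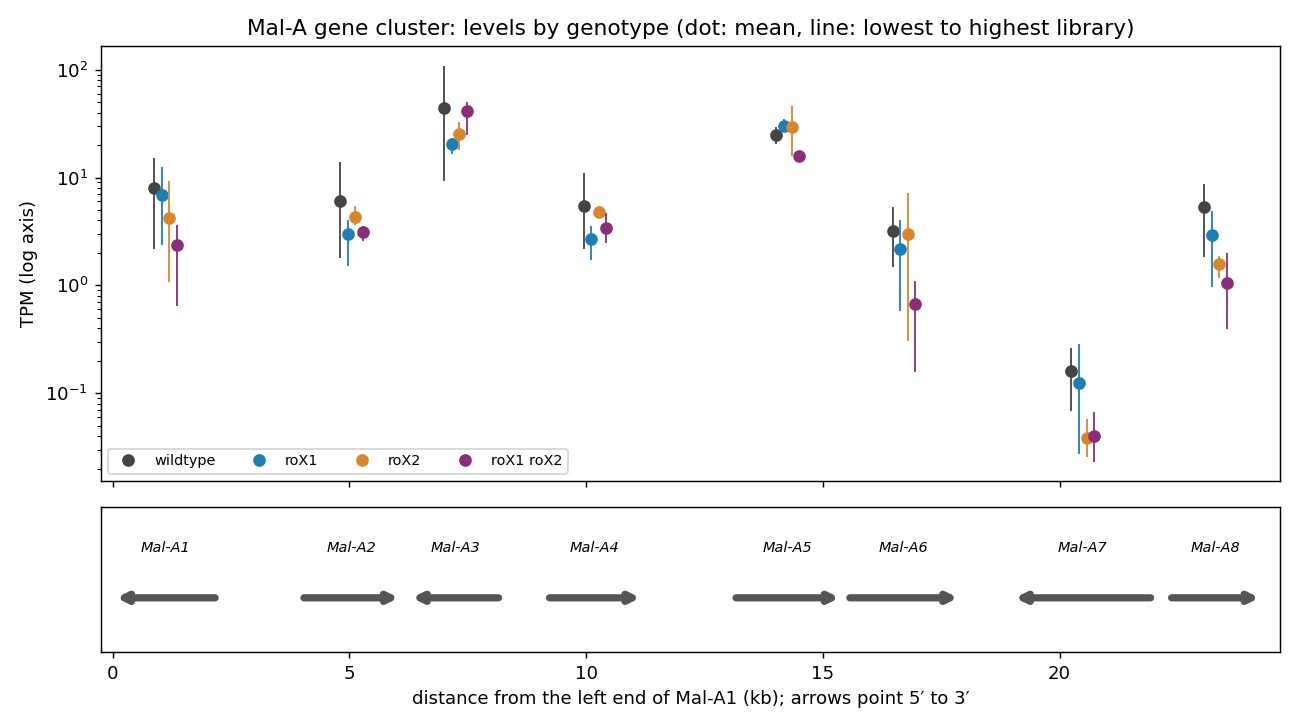
Levels along the Mal-A cluster: dots are the mean TPM (log axis) per genotype and lines run from the lowest to the highest library, above a map of the 8 genes with arrows from 5′ to 3′ by distance in kb from the left end of Mal-A1. Mal-A3 (mean 31.9 TPM) and Mal-A5 (25.5 TPM) stand above their neighbours, and the narrowest lines for the roX1 roX2 mutant are those of Mal-A5.

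The genes of the cluster did not all vary together. Over the 13 libraries, Pearson correlations of log2 CPM among Mal-A2, Mal-A3 and Mal-A4, which are adjacent, were 0.76 to 0.91. They were 0.51 to 0.81 without wildtype replicate 1, and 0.89 to 0.94 on deviations from the genotype means. Mal-A1, Mal-A6, Mal-A7 and Mal-A8, which flank those genes and Mal-A5 on both sides, correlated with each other at 0.59 to 0.89, or 0.46 to 0.89 within genotypes. Between these sets the correlations were -0.15 to 0.28 with all libraries, -0.58 to -0.15 without wildtype replicate 1, and -0.28 to 0.44 on deviations from the genotype means. Mal-A5 correlated with Mal-B1 on the other arm of the chromosome at 0.81, of which 0.28 was left on deviations from the genotype means, and with its nearest neighbours Mal-A4 and Mal-A6 at -0.05 and 0.69, or -0.56 and 0.76 on those deviations. The sets were formed after the correlations were seen, and all points share the same libraries.

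**Figure D4:**
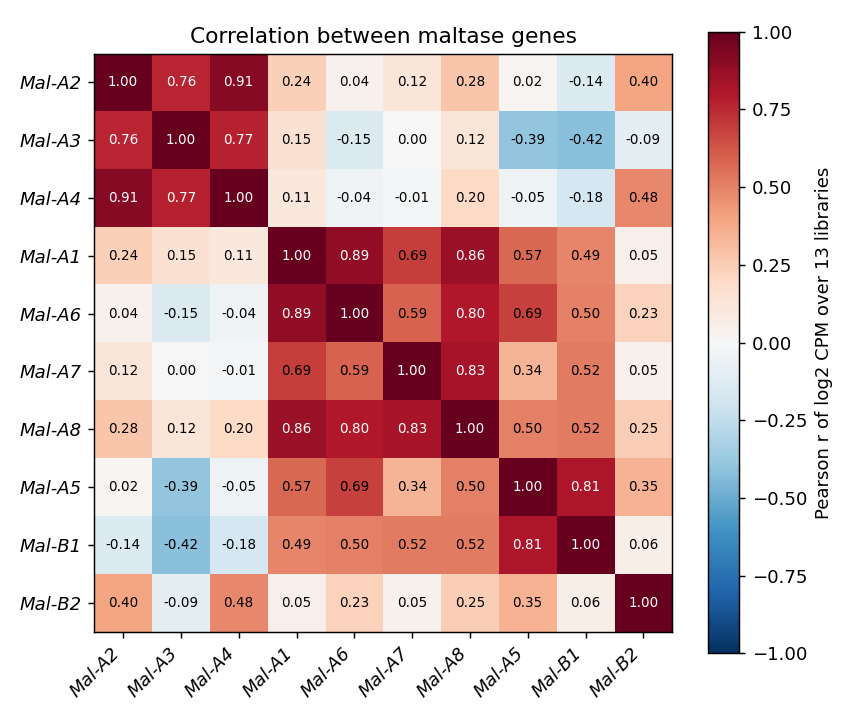
Pearson correlation of log2 CPM over 13 libraries for each pair of maltase genes, ordered by the sets described in the text. Dark red blocks join Mal-A2, Mal-A3 and Mal-A4 (0.76 to 0.91) and Mal-A1, Mal-A6, Mal-A7 and Mal-A8 (0.59 to 0.89), and Mal-A5 with Mal-B1 (0.81).

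Genes elsewhere in the genome whose pattern was most like that of a maltase were sought among 8666 genes with a mean of at least 5 CPM. For Mal-A3 they were CG16749 (r = 0.95, n = 13 libraries), Jon25Biii (0.93), Cht9 (0.93), Ag5r2 (0.92) and CG30047 (0.92). Jon25Biii is a Jonah serine protease of the gut and Cht9 belongs to the chitinase family. For Mal-B1 they were PPO1 (0.93), CG5397 (0.91), CG1354 (0.91), apolpp (0.91) and Hex-C (0.90). PPO1 is a prophenoloxidase of the blood cells and Hex-C a hexokinase.

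For Mal-B2 the nearest genes were Sxl (0.93), Myb (0.91), Cdc7 (0.91), Ag5r (0.90) and CG8915 (0.89), and all 5 are on the X-chromosome although Mal-B2 is on 2L. For Mal-A5, looked up after its values were seen, they were HisRS (0.96), dor (0.96), Nup205 (0.94), boi (0.94) and IntS4 (0.94), again all on the X-chromosome. Those of Mal-A4, also looked up afterwards, began with CG18585 (0.96) and the trypsin genes kappaTry (0.95) and zetaTry (0.95). These correlations describe 13 shared libraries and carry no test. The share of X-linked genes among the genes searched is not given here. The study reported lower expression of X-linked genes as a group in the roX1 roX2 mutant and, to a lesser degree, in the roX1 mutant. The part of that group-wide fall in these correlations was not tested.

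**Figure D5:**
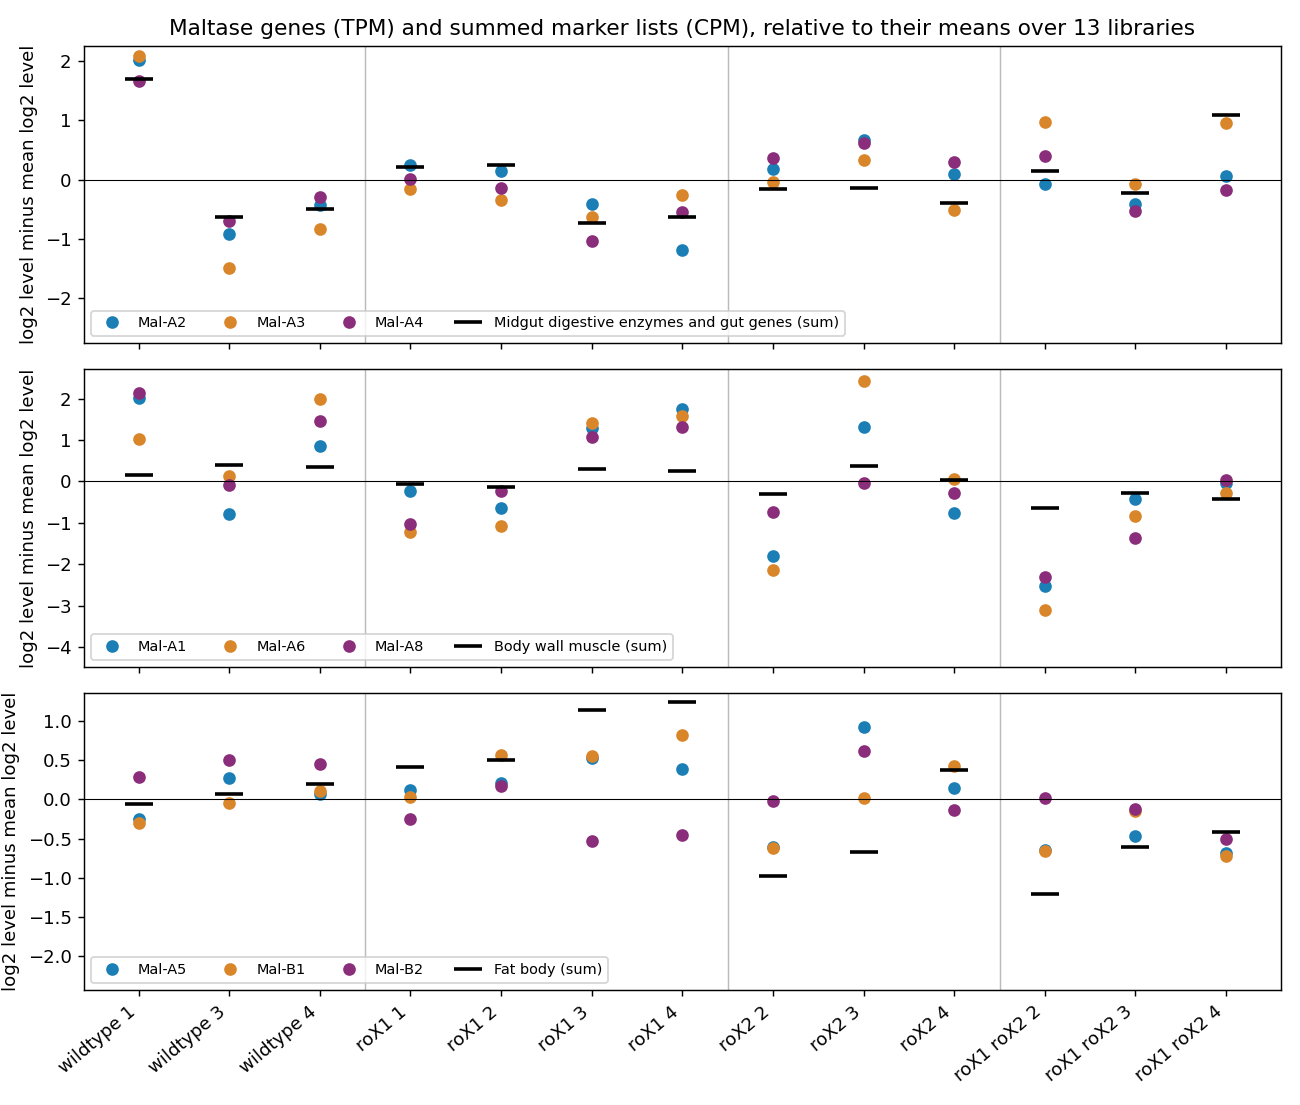
Log2 level minus the mean log2 level over 13 libraries, for Mal-A2 to Mal-A4 with the summed midgut list (top), Mal-A1, Mal-A6 and Mal-A8 with the summed muscle list (middle) and Mal-A5, Mal-B1 and Mal-B2 with the summed fat body list (bottom), genes in TPM and lists in CPM. In the top panel wildtype replicate 1 is high for the genes and for the midgut list, which reached 17296 CPM there.

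Other genes of sugar digestion and its control were counted list by list. Of 12 amylases and other glycosidases, 2 were higher in the roX1 mutant than in wildtype, beside 1.32% of all genes called in either direction: Ect3, a beta-galactosidase gene, which rose by 2.05 (SE 0.32, adjusted p = 0.0121), and tobi, an alpha-glucosidase gene under insulin control, which rose by 1.42 (SE 0.23, adjusted p = 0.0145). In the roX1 roX2 mutant against the roX1 mutant 4 of 12 were lower, beside 11.6% of all genes, among them Ect3 at -2.18, Gal at -1.94 and LManI, an alpha-mannosidase gene, at -1.43. None was called in the remaining comparisons of genotypes. The median of this list in the roX1 roX2 mutant against wildtype was -0.91, beside -0.02 over all genes, but 0.30 both without wildtype replicate 1 and without the 4 libraries that stood apart. The list summed to 483 CPM in wildtype replicate 1, to 58.9 and 85.2 CPM in the other wildtype libraries and to 97.0, 64.2 and 102 CPM in the roX1 roX2 mutant. With those libraries left out, 4 of 12 were higher in the roX1 mutant than in wildtype, 5 were higher with only roX2 deleted and 2 with both deleted, and 4 were lower in the roX1 roX2 mutant against each single mutant.

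Of 5 glucosidases of the secretory pathway and lysosome, 2 were lower in the roX1 roX2 mutant than in wildtype, GCS2alpha, a subunit of glucosidase II, at -0.70 and GCS1, glucosidase I, at -0.62, enzymes that trim glucose from new glycoproteins, where 5.67% of all genes were lower. The counts were 3 of 5 against the roX1 mutant (11.6% of all genes) and 1 of 5 against the roX2 mutant (5.44%), all lower. Of 18 genes of sugar sensing and hormonal control, 2 were lower in the roX1 roX2 mutant against wildtype, beside the same 5.67% of all genes. They were Smox, a Smad of the activin pathway, at -0.50 and cbt, a sugar-responsive transcription factor, at -0.45. These lists were not split by chromosome either. Smox was also lower against the roX1 mutant (-0.45), where bigmax, the partner of the sugar sensor Mondo, was higher (0.53), and against the roX2 mutant only Smox was called (-0.46). Of 6 trehalose and glycogen genes 1 was called, UGP, at -0.85 in the roX1 roX2 mutant against the roX1 mutant, where 11.6% of all genes were lower. Without the 4 libraries that stood apart, 3 were lower and 1 higher in that comparison, where 13.7% of all genes were lower. In that setting 2 were lower in the roX1 roX2 mutant against wildtype, beside 7.5% of all genes. In the single mutants against wildtype none of these 3 lists had a called gene, although without the 4 libraries that stood apart GCS2beta was called higher in the roX1 mutant and Tps1 lower in the roX2 mutant.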

How the data were processed

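The authors deposited raw read counts per gene for each of the 13 libraries; per the study's methods, paired-end reads were mapped to release 6 of the genome with STAR 2.5.1b and counted with HTSeq 0.6.1 at default settings. Lines without a gene (10.3 to 23.8% of a library, with 2.91 to 3.37% ambiguous and 6.11 to 19.6% not unique) were left out. The Ensembl annotation BDGP6.54 supplied symbols, exon lengths and positions, and it holds 17229 of the 17476 genes; TPM and CPM were computed from the counts. Genes with at least 20 counts summed were fitted in 1 model over all 4 genotypes with edgeR 4.0.16 (TMM, quasi-likelihood test) in R 4.3.3, with Benjamini-Hochberg adjustment over 13975 genes and a threshold of 0.05. Alternatives were DESeq2 1.42.0, other scalings, other filters, a replicate block, only the genotypes compared, and left-out libraries. SEs were derived from the fold change and the test statistic of the fit. The 95% intervals use these SEs with a normal distribution, so they are narrower than the test implies. They can leave out 0 where the unadjusted p is not under 0.05.

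The members and gene lists were chosen with earlier results of these data known. All members are named; the 5 most similar genes are named for Mal-A3, which had the highest mean TPM, Mal-B1 and Mal-B2, and up to 3 called genes per list. The midgut, fat body, muscle, nervous system and Osiris and Tweedle lists served as markers. The labels do not say that replicates came from separate cultures, although the methods call them biological replicates, so p-values measure the spread between these samples. Replicate numbers did not clearly pair libraries across genotypes. Between wildtype and the roX1 mutant, same-numbered deviations from group means correlated at 0.610 to 0.735 in 3 pairs, but other pairs reached 0.719. There 4 of 6 libraries correlated best with their own number. On simulated counts for the roX1 roX2 mutant against wildtype over 13801 genes, 20% of 2-fold and 81% of 4-fold changes were recovered, so changes of 2-fold or less could often be missed. The changed genes, 100 for each size, were drawn only from genes with higher mean counts than Mal-A7. These rates therefore do not cover Mal-A7.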

Additional observations from a re-analysis of the deposited data

Results flagged for a closer look

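The effect of deleting roX2 on Mal-A5 differed with and without roX1, by -1.55 on the log2 scale in a test of the interaction (SE 0.28, adjusted p = 0.0202, edgeR's quasi-likelihood test). That call passed in 9 of 13 fits that left out 1 library, with adjusted p up to 0.0770. The roX2 mutant was at 0.32 against wildtype, and the roX1 roX2 mutant at -1.23 against the roX1 mutant, with all 3 roX1 roX2 mutant libraries below all 4 roX1 mutant libraries.

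Mal-B1 also differed in this way, by -1.54 (SE 0.35, adjusted p = 0.0403), but passed in only 3 of 13 fits that left out 1 library, with adjusted p up to 0.129. The corresponding differences were 0.21 and -1.32, and again the 3 roX1 roX2 mutant libraries were below the 4 roX1 mutant libraries. No maltase level in the 4 roX1 mutant libraries, the only group with enough libraries for the outlier check, had an outlying library.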

How the results depend on the processing

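None of the calls on single maltase genes was lost with DESeq2 or with another scaling or filter, but many directions without a call depended on the libraries. The counts of called genes moved by over 1.5 times with DESeq2, from 185 to 979 (roX1 mutant against wildtype), 49 to 245 (roX2 mutant against wildtype), 1269 to 2215 (roX1 roX2 mutant against wildtype), 1072 to 1805 (roX1 roX2 mutant against roX2 mutant) and 420 to 1503 (interaction). With only the genotypes compared in the fit they were 84 and 9 in the single mutants against wildtype and 194 in the roX1 roX2 mutant against the roX2 mutant, and without the 4 libraries that stand apart 545 and 145 in the comparisons of single mutants with wildtype. The number of maltase genes called was 1 in the roX1 mutant against wildtype with DESeq2 and without those 4 libraries, 4 in the roX1 roX2 mutant against the roX1 mutant without them (beside 20.8% of all genes), and 0 against the roX2 mutant with only these genotypes in the fit. Leaving out 1 library at a time gave 61 to 319, 23 to 59, 386 to 1860, 804 to 3315, 181 to 2009 and 73 to 1401 called genes in the 5 comparisons and the interaction, and 0 to 3, 0 to 2 and 0 to 2 called maltase genes in the roX1 roX2 mutant against wildtype, against the roX2 mutant and in the interaction. The causes were not tested.

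Without the 4 libraries the log2 fold change changed sign in the roX1 mutant against wildtype for Mal-A1 (1.34), Mal-A2 (0.0067), Mal-A3 (0.77), Mal-A6 (0.22), Mal-A7 (0.96) and Mal-A8 (0.39), and in the roX2 mutant against wildtype for Mal-A1 (0.10), Mal-A2 (1.19), Mal-A3 (1.39), Mal-A4 (1.11) and Mal-B1 (-0.21). It also changed in the roX1 roX2 mutant against wildtype for Mal-A2 (0.34), Mal-A3 (1.64) and Mal-A4 (0.25), against the roX1 mutant for Mal-A2 (0.34) and Mal-B2 (0.016), and against the roX2 mutant for Mal-A7 (0.051). Scaling on autosomal genes turned Mal-A4 against the roX1 mutant to -0.038. None of these but Mal-A3 at 1.64 passed the test.

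Leaving out 1 library at a time also turned some uncalled signs. In the roX1 mutant against wildtype the ranges were -0.64 to 0.67 for Mal-A1, -1.41 to 0.55 for Mal-A2, -1.55 to 0.87 for Mal-A3, -1.32 to 0.21 for Mal-A4, -0.90 to 0.15 for Mal-A6 and -1.18 to 0.22 for Mal-A7. In the roX2 mutant against wildtype they were -0.85 to 1.11 for Mal-A2, -1.21 to 1.22 for Mal-A3, -0.46 to 1.06 for Mal-A4, -1.69 to 0.42 for Mal-A6, -0.10 to 0.36 for Mal-B1 and -0.17 to 0.021 for Mal-B2. In the roX1 roX2 mutant they were, against wildtype, -1.62 to 0.34 for Mal-A2, -0.78 to 1.64 for Mal-A3 and -1.28 to 0.25 for Mal-A4, against the roX1 mutant -0.20 to 0.25 for Mal-A4, and against the roX2 mutant -1.56 to 0.092 for Mal-A1 and -0.82 to 0.019 for Mal-A7.

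With the replicate number as a block, the comparisons with wildtype called 209 (roX1 mutant), 32 (roX2 mutant) and 818 genes (roX1 roX2 mutant), and no call on a maltase gene changed. Signs turned for Mal-A1 in the roX1 mutant against wildtype (0.40), for Mal-A2 (0.64), Mal-A3 (0.64) and Mal-A4 (0.65) in the roX2 mutant, for Mal-A3 in the roX1 roX2 mutant against wildtype (0.97) and for Mal-A2 against the roX1 mutant (0.23). Outside the comparison of wildtype with the roX1 mutant the same-numbered correlations were -0.749 to 0.491. As between wildtype and the roX1 mutant, 4 of 6 libraries correlated best with their own number between the roX1 roX2 mutant and each single mutant, as a hint from the data, against 0 of 6 between the single mutants. Over the settings other than a left-out library, 411 fold changes of maltase genes kept their direction and side of the threshold, 24 turned their sign, of which Mal-A3 in the roX1 roX2 mutant against wildtype without the 4 libraries also passed the threshold, 8 others passed it newly with the same direction and 2 no longer passed it. Values relative to the mean of the major autosome arms are among these settings and kept the p of the main fit, so they could not change side of the threshold. The depth limits Mal-A7, with 2 to 35 counts per library.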
